A study of Rattus norvegicus with 6 samples.

Results

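A set of 7 genes that carry, bind and take up lipids in brain was followed across the 3 exercise comparisons. They were the apolipoproteins Apoe, Apod and Clu, the cholesterol exporter Abca1, the lipoprotein receptor Lrp1, the lipase Lpl and the fatty acid binding protein Fabp7. Members were found by gene name on the array, and for Apoe also by a probe designed on a genomic Apoe entry, X04979. This gave 7 of 35561 gene names and 10 of 41012 probes, printed as 19 of 43379 spots.

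Hippocampal RNA came from male Wistar rats in 3 groups. The rats were 11 weeks old when housed, before rearing and training. Controls (CONT) were sedentary and were placed on the treadmill without running, mild exercise (ME) rats ran at 15 m/min, below the lactate threshold (LT), and intense exercise (IE) rats ran at 40 m/min, above it. Training lasted 60 min/day, 5 times a week, for 6 weeks. These weeks took in the habituation, of 1 week with ME and 4 weeks with IE, in which slight electric shocks were used. After it, some IE rats received further foot shocks, and IE rats that refused to run were left out of the study. Equal amounts of RNA (1000 ng) from 5 rats per group were pooled. The sample records place collection 24 or 36 h after the last training session and the study's methods place it 2 days after, and the records speak of a first and a second pool where the methods describe 1 pool per group. The ME and CONT pools, the IE and CONT pools, and the IE and ME pools were each read on a pair of arrays with opposite dyes, so each comparison is 1 replicate and the spread between rats was not measured. A pool also hides which rats contribute a signal, and in whole hippocampus fewer cells of a type and less RNA per cell cannot be told apart.

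In brain, lipoprotein particles built around apolipoprotein E, and to a lesser degree apolipoprotein J (clusterin, the product of Clu), carry cholesterol and phospholipid between glia and neurons. Astrocytes are the main source of both proteins. Abca1 moves cholesterol onto lipid-poor apolipoprotein, endocytic receptors such as Lrp1 take the particles up, and lipases such as Lpl release fatty acids that binding proteins then carry within the cell.

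Apoe and Lrp1 were each read by a pair of probes that gave different pictures, so the 60-mers are shown here as the array files give them, 5′ to 3′ in lower case with no base marked. The Apoe probes lay on the minus strand of the rn3 build at chr1:79081906-79081965 (A_44_P171440, designed on the RefSeq transcript) and chr1:79083965-79084024 (A_44_P477841, designed on X04979). Their starts were 2059 bases apart. The Lrp1 probes lay on the minus strand at chr7:67542444-67542503 (A_44_P375553) and chr7:67586316-67586523 (A_44_P333071), with starts 43872 bases apart. The last of these spans 208 bases of genome for 60 bases of probe, so its match is split. Exon, intron and UTR positions of the probes were not analysed here.
Apoe A_44_P171440: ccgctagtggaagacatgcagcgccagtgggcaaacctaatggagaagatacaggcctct
Apoe A_44_P477841: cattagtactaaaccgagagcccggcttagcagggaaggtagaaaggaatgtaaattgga
Lrp1 A_44_P375553: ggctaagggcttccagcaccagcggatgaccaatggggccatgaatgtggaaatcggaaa
Lrp1 A_44_P333071: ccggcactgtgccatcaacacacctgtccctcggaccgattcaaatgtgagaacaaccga

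None of the 10 probes met, in any comparison, a criterion that asks for the study's fold range and p threshold on both arrays. For 9 of them, well above background in each of the 12 channel readings, mean ratios lay between -0.21 and 0.14 on the log2 scale, or from -13.7% to 9.91%. A call needed a Cy5 to Cy3 ratio of 1.5 or more on 1 array, one of 0.75 or less once the dyes were exchanged, and a software p below 0.01 each time. That p is set by the scanner software from its own errors and speaks of the 2 pools of a single array. Among all probes the criterion called 0.122% with ME, 0.0293% with IE and 0.0732% in the direct comparison of IE with ME, and beside such shares 0 of 10 does not set the members apart from the rest of the array. Without the p, the fold range alone took in 0.987%, 0.667% and 1.06% of all probes in these comparisons. It took in 1 member probe, the Apoe probe on X04979 with ME, and no member probe with IE or in the direct comparison of both intensities. The study's Venn diagram counts genes by the fold range, and the study reports APOE as up-regulated with ME. The criterion used here, which also asks for the p, called 50 probes with ME and 12 with IE. The fold range alone, asked of both arrays, took in 404 and 273 probes. All of these counts are lower than the numbers of genes the study counts as changed.

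Ratios are given as log2 ratios of the first-named pool over the second. The first array of a pair carries the first-named pool in Cy5 and the swapped array carries it in Cy3, and the mean is given ± SD of these 2 arrays. Signals are the software's processed intensities, on a linear scale, and are set side by side only for the same probe.

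**Figure D1:**
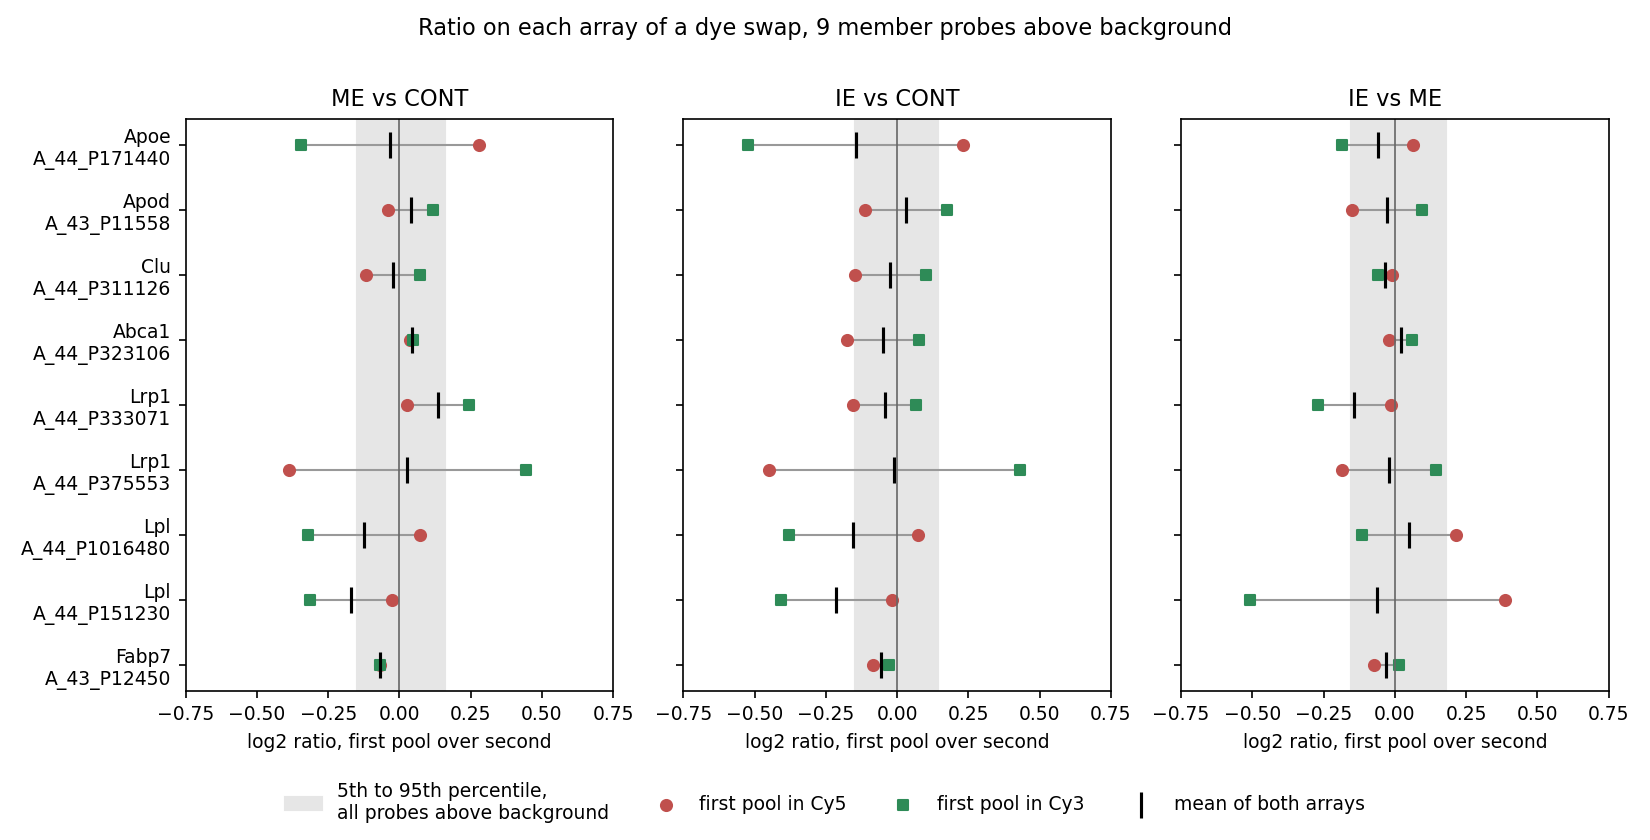
Log2 ratio (x axis) of the 9 member probes well above background, with 1 panel per comparison, a circle for the array with the first-named pool in Cy5, a square for the swapped array, a tick for their mean, and grey shading for the 5th to 95th percentile of all probes well above background. Means lie between -0.21 and 0.14, and the circle and square of Apoe and of Lrp1 A_44_P375553 fall on opposite sides of 0 in each panel.

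Apoe, the main lipid carrier of brain, gave no call through its transcript probe in any comparison. The processed signal of A_44_P171440 ran from 54928 to 120808 over the 12 readings. With ME the ratio to CONT was 0.28 on the first array and -0.35 on the swapped array, with a mean of -0.034 ± 0.44. With IE it was 0.23 and -0.52, with a mean of -0.15 ± 0.53. The 2 arrays of each pair thus lay on opposite sides of 0. In IE vs ME the ratio was 0.064 and -0.19, with a mean of -0.061 ± 0.18. On each array the pool labelled with Cy5 was the brighter one for this probe, whichever pool that was, by 0.064 to 0.52. Each of the 3 means was smaller than its SD between arrays.

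The Apoe probe on X04979 gave the largest ratios of the set, from readings that were mostly not well above background. Only 1 of its 12 readings was well above background, and its processed signal ran from 2.26 to 18.3. With ME the ratios were 1.12 and 0.79, a mean of 0.96 ± 0.23, with software p of 0.31 and 0.68. Both ME arrays put the probe above CONT, and neither software p was near the threshold. With IE the first array gave -1.14 and the software set the swapped array to 0, for a mean of -0.57 ± 0.81. The direction of this IE value turned with the processing, to 0.12 in the authors' value table, 0.030 after normexp and 0.18 in a joint fit of all arrays. The IE vs ME arrays gave 2.01 and -0.55, a mean of 0.73 ± 1.81. The direct arrays thus pointed opposite ways. The arrays against CONT gave IE over ME as -1.53 for this probe, while the direct IE vs ME arrays gave 0.73, a gap of 2.26. With most readings not well above background these ratios give no level of Apoe RNA, and the transcript probe did not show the ME ratio of this probe.

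Apod, a lipocalin that binds arachidonic acid and sterols and is made by glia and by cells of the vessel wall and meninges, was called in no comparison. Its probe A_43_P11558 had a processed signal of 4000 to 5752. With ME the ratios were -0.039 and 0.12, a mean of 0.040 ± 0.11. With IE they were -0.11 and 0.17, a mean of 0.031 ± 0.20. The swapped array was the higher one in both. In IE vs ME they were -0.15 and 0.093, a mean of -0.029 ± 0.17. The sign turned with the dye in all 3 pairs, and the Cy3 pool was the brighter one on 6 of 6 arrays.

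Clu, the gene of apolipoprotein J, an extracellular chaperone, was not called either. Its probe A_44_P311126 had a processed signal of 22286 to 32121. The ratios with ME were -0.12 and 0.073, a mean of -0.021 ± 0.13, and those with IE were -0.15 and 0.10, a mean of -0.024 ± 0.18. With both intensities the sign turned with the dye. In IE vs ME they were -0.012 and -0.059, a mean of -0.036 ± 0.033. This last pair was the only one of Clu with both arrays of the same sign.

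Abca1, which hands cholesterol to apolipoproteins at the cell surface, had a processed signal of 158 to 242 on A_44_P323106. With ME the 2 arrays gave 0.038 and 0.048, a mean of 0.043 ± 0.0068. With IE they gave -0.17 and 0.076, a mean of -0.049 ± 0.18, and in IE vs ME -0.021 and 0.061, a mean of 0.020 ± 0.058. Both ME arrays put Abca1 above CONT, by 3.03%, and the software's p values for them were 0.85 and 0.82.

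Lrp1, the large endocytic receptor for apolipoprotein E, was read by 2 probes without a call. For A_44_P375553 (processed signal 636 to 1720) the ME arrays gave -0.39 and 0.44, the IE arrays -0.45 and 0.43, and the IE vs ME arrays -0.18 and 0.14. The means were 0.028 ± 0.59, -0.0094 ± 0.62 and -0.021 ± 0.23. The Cy3 pool was the brighter one on 6 of 6 arrays, with a mean of -0.34 for Cy5 over Cy3, and the means of the pairs lay near 0. The other probe had arrays closer to each other. For A_44_P333071 (processed signal 76.0 to 108) the ME arrays gave 0.027 and 0.25, a mean of 0.14 ± 0.15, and the IE arrays gave -0.15 and 0.066, a mean of -0.044 ± 0.15. Its IE vs ME arrays gave -0.015 and -0.27, a mean of -0.14 ± 0.18. This was the probe with the highest ME ratio and the lowest IE vs ME ratio among the 9, and the other Lrp1 probe did not show either.

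**Figure D2:**
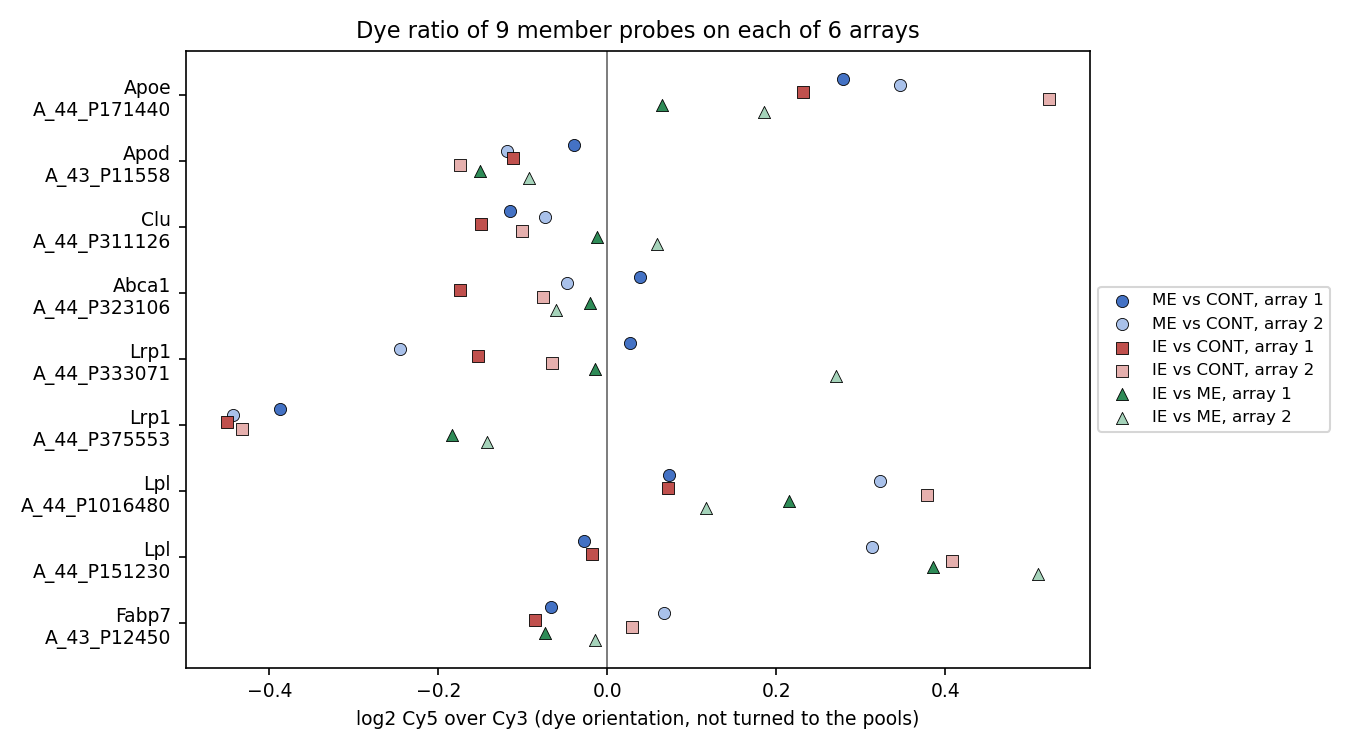
Log2 of Cy5 over Cy3 (x axis) on each of the 6 arrays for the 9 member probes well above background, with 1 point per array and the sign not turned to the pools. Points of Apoe A_44_P171440 and Lpl A_44_P1016480 lie above 0 on 6 of 6 arrays and those of Apod and Lrp1 A_44_P375553 below 0 on 6 of 6, whichever pool carried Cy5.

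The plot of Cy5 over Cy3 shows which of these probes follow the dye. For 4 of the 9 probes well above background the same dye was brighter on all 6 arrays. The same held for 34.6% of the 24719 probes of the array that were well above background in all 12 readings. For Apoe A_44_P171440, Cy5 over Cy3 was 0.28 and 0.35 on the ME pair and 0.23 and 0.52 on the IE pair. A pair of arrays cannot tell an equal dye effect with a difference between pools from a dye effect that differs between the arrays.

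Lpl, the lipase that frees fatty acids from triglyceride-rich lipoproteins, had the lowest ratios to CONT of the 9 probes with both intensities, on both of its probes. Neither probe was called. A_44_P1016480 (processed signal 491 to 854) gave 0.073 and -0.32 with ME, a mean of -0.12 ± 0.28, and 0.072 and -0.38 with IE, a mean of -0.15 ± 0.32. Its IE vs ME arrays gave 0.22 and -0.12, a mean of 0.049 ± 0.23. It was printed as 10 spots on each array, of which 8 to 10 were kept, and these spots had an SD of 0.023 to 0.042 within an array. The gap between the arrays of a pair was thus far wider than the spread of the spots on either.

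A_44_P151230, whose start lies 530 bases from that of the other Lpl probe, gave -0.028 and -0.31 with ME, a mean of -0.17 ± 0.20, a difference of -11.1% from CONT. With IE it gave -0.018 and -0.41, a mean of -0.21 ± 0.28, a difference of -13.7%. Its processed signal ran from 114 to 422. On the IE vs CONT arrays the IE pool read 337 and 318 and the CONT pool 341 and 422, and on the first array the pools differed by little. In IE vs ME the arrays gave 0.39 and -0.51, a mean of -0.062 ± 0.63. The 2 arrays against CONT had the same sign in both comparisons, but nearly all of the difference came from the swapped array. Software p was 0.89 and 0.13 with ME and 0.93 and 0.051 with IE. Both Lpl ratios use the same CONT pool, so they are not independent readings of CONT. The probes of named genes whose 6 ratios lay nearest to those of this probe, among 11055 candidates, were Egfl6 (Euclidean distance 0.24), Ncam2 (0.26) and Xpo4 (0.26). The distance was taken over single arrays, so it also counts the dye effect of each probe. Shared regulation was not tested.

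Fabp7, the brain fatty acid binding protein of astrocytes and of radial glia-like stem cells, had the smallest gap between its ME arrays. Its probe A_43_P12450 had ratios of -0.067 and -0.067, a mean of -0.067 ± 0.00011, a difference of -4.55% from CONT. With IE the arrays gave -0.085 and -0.029, a mean of -0.057 ± 0.040, and in IE vs ME -0.074 and 0.015, a mean of -0.030 ± 0.063. Its 4 arrays against CONT were all below 0, with software p between 0.68 and 0.89. The processed signal was 18651 to 20356 on the slide with the CONT arrays and 6744 to 7130 on the IE vs ME slide, so levels were not compared between slides.

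**Figure D3:**
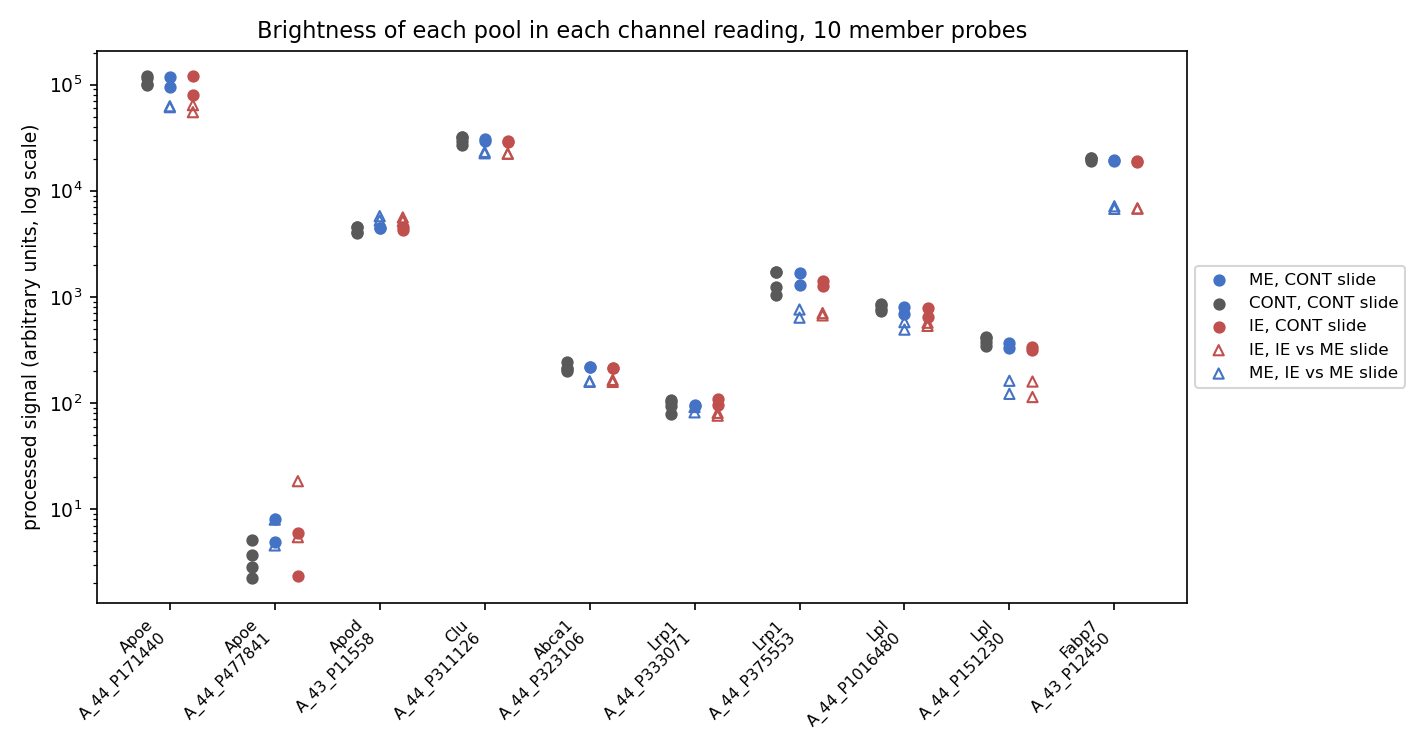
Processed signal of each member probe in the pools CONT, ME and IE, on a log10 axis, with 1 point per channel reading and 4 readings per pool. Circles are readings on the slide with the CONT arrays and triangles those on the IE vs ME slide, and the Apoe probe on X04979 stays at or below 18.3.

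The closeness of 2 arrays of the same RNA does not measure how well a ratio is known. From the software's own error of each log ratio, the 95% interval of a mean of 2 arrays was ±0.28 to ±0.32 for the 9 probes, and it included 0 in 27 of 27 cases. It covers technical error only, as the software models it, and leaves out the observed spread between the 2 arrays. The SD of that spread reached 0.63, for Lpl A_44_P151230 in IE vs ME. The bounds ran from -0.50 to 0.43, so by the software's errors alone a 1.5-fold difference between pools in either direction lies outside these intervals for all 9 probes. With the spread between arrays left out, the intervals cannot exclude such a difference. The other limit of the criterion, 0.75-fold or -0.42 on the log2 scale, lies inside 5 of the 27 intervals, namely those of Lpl A_44_P151230 with both intensities, of Lpl A_44_P1016480 and Apoe A_44_P171440 with IE, and of Lrp1 A_44_P333071 in IE vs ME. The same limit taken upward lies inside 1 interval, that of Lrp1 A_44_P333071 in ME vs CONT, which reached 0.43. A difference of a few percent was not detectable. As a further reading, IE vs ME was computed through CONT and set beside the direct arrays. For the 9 probes the 2 differed by 0.016 (Lrp1 A_44_P375553) to 0.11 (Abca1), where the median gap of all probes well above background was 0.058.

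The 6 arrays were also fitted together with limma, with a coefficient for ME, one for IE and a dye term per slide. This leaves 2 residual degrees of freedom and measures technical spread. The fit takes the dye effect of a probe as equal on all arrays of a slide. Its intervals and p values rest on that assumption, which was not tested. No probe of the array, members included, passed an adjusted p of 0.05 in any comparison, and the lowest adjusted p of a member was 0.48 in ME vs CONT, 0.63 in IE vs CONT and 0.45 in IE vs ME. Unadjusted p values under 0.05 were given to 8.35% of all probes in ME vs CONT, 7.75% in IE vs CONT and 9.32% in IE vs ME. Of the 10 member probes 3 were among them with ME (both Lpl probes below CONT, Lrp1 A_44_P333071 above), 3 with IE (both Lpl probes and Apoe A_44_P171440, below) and 1 in IE vs ME (Lrp1 A_44_P333071, below). The joint estimates for Lpl A_44_P151230 were -0.16 with ME (95% interval -0.25 to -0.073, limma adjusted p = 0.48) and -0.22 with IE (-0.31 to -0.13, adjusted p = 0.63). For Lpl A_44_P1016480 they were -0.15 with ME (adjusted p = 0.51) and -0.13 with IE (adjusted p = 0.64). For Apoe A_44_P171440 with IE the estimate was -0.13 (adjusted p = 0.64). None of these is a call.

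The members were then set in the spread of all probes. In ME vs CONT the middle 90% of probes well above background had ratios from -0.15 to 0.16, and 8 of the 9 member probes lay inside, the exception being Lpl A_44_P151230. In IE vs CONT the same range was -0.15 to 0.14 and 7 of 9 lay inside, with both Lpl probes outside. In IE vs ME it was -0.15 to 0.18 and 9 of 9 lay inside. Over the 10 probes the median ratio was 0.0032 for ME, -0.053 for IE and -0.029 for IE vs ME. Without the Apoe probe on X04979 it was -0.021, -0.049 and -0.030, beside medians of -0.0025, 0.0018 and 0.0028 for all probes well above background. The 2 arrays of a pair had the same sign for 5 of 10 member probes in ME vs CONT (3 higher, 2 lower), for 2 in IE vs CONT (both lower) and for 2 in IE vs ME (both lower), where 27.0%, 26.6% and 22.9% of all probes had the same sign.

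The other genes of lipoprotein handling were read from 5 lists of 63 genes and 86 probes, which hold apolipoproteins, receptors, transport proteins and enzymes, fatty acid binding proteins, and regulators with sterol synthesis. No probe of these lists was called in any comparison. Among all probes the shares called were 0.122%, 0.0293% and 0.0732%, so 0 of 86 does not set the lists apart. Of the 86 probes, 60 with ME, 58 with IE and 54 for IE vs ME were well above background, and their median ratios were -0.013, 0.0023 and 0.0085. Both arrays were higher for 5 and lower for 14 with ME, for 10 and 8 with IE, and for 8 and 7 in IE vs ME. Among all probes well above background, both were higher for 13.6% and lower for 15.0% with ME. With IE these shares were 14.6% and 13.6%, and in IE vs ME 14.5% and 12.1%. The fold range alone took in 4 of the 86 probes with ME, beside 0.987% of all probes. They were Lipg and Fabp4 above CONT and Lrp1b (A_44_P536741) and Fabp1 below, and each had at most 1 of its 4 readings well above background.

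Among the apolipoproteins, 9 of 19 probes were well above background with ME and their median was -0.019. Apoc1, which is carried with Apoe on the same particles, had 0.095 ± 0.060 with IE and 0.11 ± 0.12 in IE vs ME, with both arrays above 0 in each. Among the receptors, 10 of 17 probes were well above background with ME and none had both arrays higher. The lowest was Lrp2 (megalin, a receptor of epithelia such as choroid plexus), at -0.24 ± 0.081 with ME and -0.19 ± 0.13 with IE. Vldlr, which binds reelin as well as Apoe, was at -0.072 ± 0.052 in IE vs ME. Scarb1, the HDL receptor, was at 0.051 ± 0.027 in IE vs ME on A_44_P379244, and at -0.014 ± 0.14 on its brighter probe A_44_P422696.

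Among transport proteins and enzymes, Lcat, which esterifies cholesterol on the particle, was at 0.089 ± 0.0048 with ME and -0.13 ± 0.050 in IE vs ME. Pltp, the phospholipid transfer protein, was at -0.17 ± 0.12 with ME on A_44_P488690. Its brighter probe A_44_P436280 was at -0.057 ± 0.38, with the arrays on opposite sides of 0. Of fatty acid binding proteins, 3 of 7 probes were well above background with ME, between 0.0072 and 0.050. Of the 29 probes of regulators and sterol synthesis, 28 were well above background with ME and with IE, with medians of -0.013 and 0.0080.

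In that last list Cyp27a1, which makes 27-hydroxycholesterol, was at 0.075 ± 0.044 with ME. Srebf1, the transcription factor of fatty acid synthesis, was at 0.24 ± 0.22 (A_42_P667564) and 0.088 ± 0.061 (A_44_P178448) with IE, and the second of these was at 0.052 ± 0.036 with ME and 0.10 ± 0.12 in IE vs ME. A further Srebf1 probe, A_44_P501142, was at 0.092 ± 0.41 with ME and 0.088 ± 0.41 with IE, with the arrays of each pair on opposite sides of 0. The retinoid receptor gene Rxrg was at -0.20 ± 0.24 (A_44_P328016) and -0.17 ± 0.026 (A_44_P269316) with IE. Ppard, a lipid-sensing nuclear receptor, was at -0.093 ± 0.016 in IE vs ME. Apart from Srebf1 A_44_P501142 and the brighter probes of Pltp and Scarb1, the genes given with a ratio from these lists were among the 3 highest and 3 lowest ratios of a comparison. Those had the same sign on both arrays, and none of the probes was called.

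**Figure D4:**
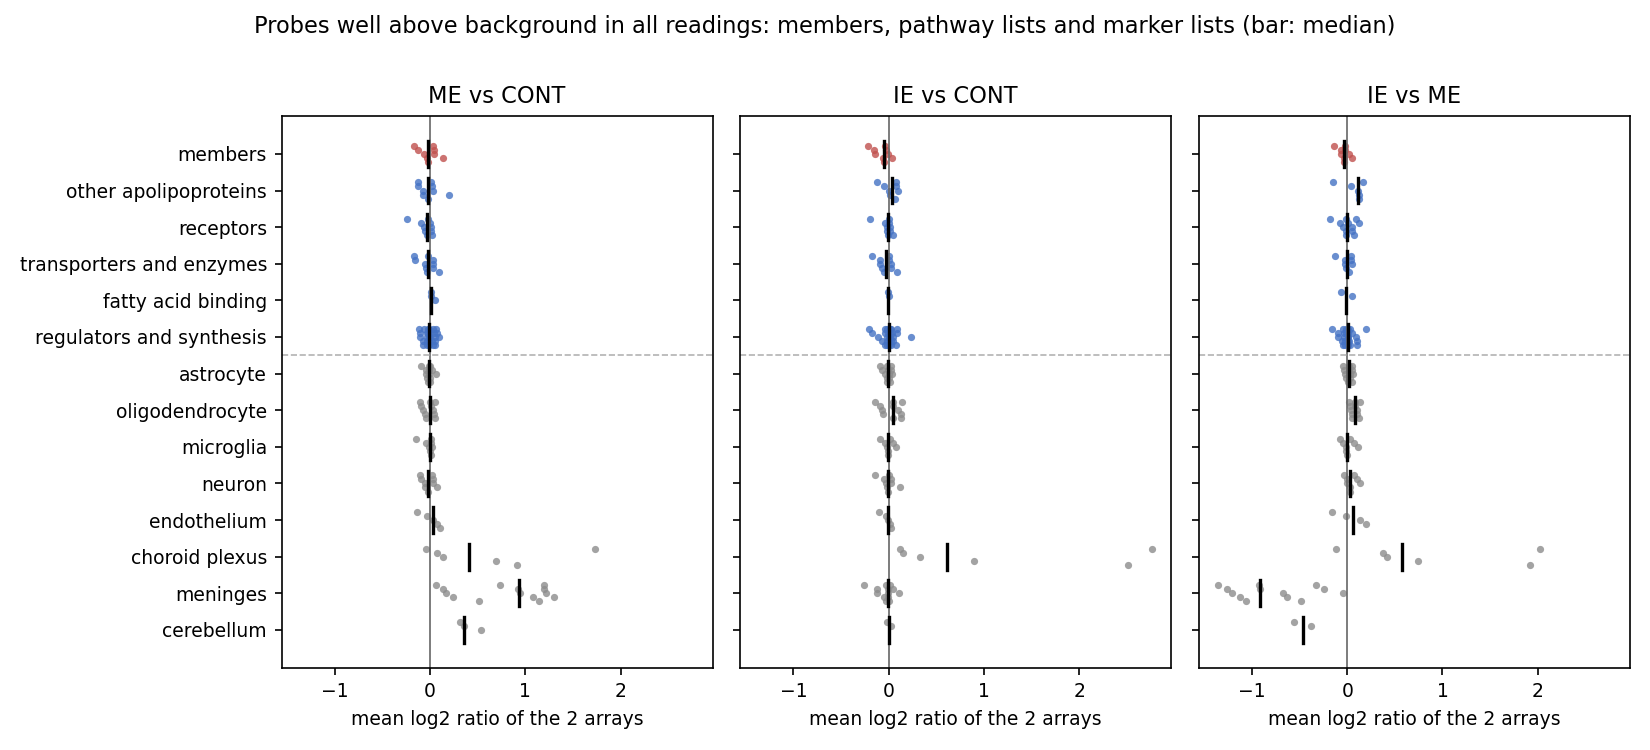
Log2 ratio (x axis, mean of the dye swap) of each probe well above background in the member set, the lipoprotein lists and the cell type marker lists, for the 3 comparisons, with a bar at the median of each list. Members and lipoprotein lists lie around 0, while meningeal markers lie above 0 in ME vs CONT (median 0.93) and below 0 in IE vs ME (median -0.91).

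Markers of the cell types of hippocampus were detected, and none of their probes was called in any comparison, where at most 0.122% of all probes were. All 9 neuron marker probes and 13 of 14 astrocyte marker probes were well above background with ME, and the medians of such probes were -0.027 and -0.0098. With IE these medians were -0.0067 and -0.0045, and in IE vs ME 0.029 and 0.022. For oligodendrocytes they were 0.0017, 0.045 and 0.077, for microglia 0.0030, -0.0075 and -0.0066, and for endothelium 0.031, -0.0095 and 0.064. Apoe, Clu and Fabp7 are astrocyte genes, and their mean ratios on the bright probes, -0.067 to -0.021 with ME, stand beside an astrocyte marker range of -0.098 to 0.061. With IE, Clu and Fabp7 lay inside the marker range of -0.094 to 0.037 and Apoe, at -0.15, lay below it. In IE vs ME, Apoe at -0.061 was below the lowest astrocyte marker, at -0.046, while Clu and Fabp7 were inside. The Apoe arrays of both pairs lay on opposite sides of 0, with SDs of 0.53 with IE and 0.18 in IE vs ME. These positions therefore do not set Apoe apart from the markers.

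Markers of tissue outside the hippocampus differed between some of the pools by far more. Of 14 probes of meningeal genes, 9 were called higher with ME, 0 were called with IE and 8 were called lower for IE vs ME, with medians over the probes well above background of 0.93, -0.011 and -0.91. Of 10 probes of choroid plexus genes, 3 were called higher for ME, 4 for IE and 2 for IE vs ME, with medians of 0.41, 0.61 and 0.58. Of 4 probes of cerebellar genes, 1 was called higher with ME and none with IE or in IE vs ME. Their medians were 0.35, -0.0012 and -0.47, over only 3, 2 and 2 probes well above background. Apod, which meningeal cells also make, was at 0.040 with ME while the meningeal median was 0.93. The part of these tissues in the ratios of the members was not tested.

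Across the 6 arrays, 66.5% to 74.4% of spots were well above background in both channels, 92 to 302 spots were marked as outliers and left out, and 0 spots were saturated. The 4 arrays against CONT lay on 1 slide and the 2 IE vs ME arrays on another.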

How the data were processed

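The files are Agilent 60-mer 2-colour arrays, extracted by the authors with Feature Extraction 9.5.3.1 (slide with CONT, annotation build rn3) and 11.0.1.1 (IE vs ME slide, header build rn4), per the file headers. The authors deposited log10 ratios of Cy5 over Cy3 (background-subtracted and LOWESS-normalized by the software), a p-value and an error of each log ratio from its error model, and the intensity of each spot, raw and processed. A value table by the authors gives processed signals as a log10 ratio, its sign reversed for each swapped array, and matches the ratio of the processed signals within 0.001 for all 45018 spots (medians -0.00996 to 0.00872 by array).

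Control features (1639 of 45018) and outlier spots were left out, spots of a probe were averaged and ratios were turned to log2 and to the first-named pool. Signal over background stands in for depth, and the number of arrays limits precision. The 95% intervals use the software's errors. Alternatives were the fold range alone, a mean fold, bright probes alone, normexp (offset 50) or no background subtraction with loess, the value table, outlier spots kept, single arrays, means over a gene's probes, and a joint limma fit. Counts of unadjusted p values and the position of members in the spread of all probes were added after the data were seen.

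The members and all lists were chosen with earlier results of these data known. The text names every member probe, lipoprotein list probes called in any comparison (there were none), the 3 highest and 3 lowest of these lists per comparison (well above background, same sign on both arrays) and the 3 probes nearest to the member probe with the largest absolute ratio among those well above background. Marker lists are given by counts and ranges, and 1 list probe is not reported here. Lipg, Fabp4, Lrp1b, Fabp1, Srebf1 A_44_P501142 and the brighter probes of Pltp and Scarb1 were named after their values were seen. Genes of the lists were matched by array name, or by RefSeq accession through the GRCr8 annotation (10579 probes with 1 symbol). Apof, Apoo, Gpihbp1, Lmf1, Npc1, Neurod6, Cbln1 and Cbln3 were not found among the array's names. The calling rule was tested on simulated data. R 4.3.3, limma 3.58.1 and Python 3.11.15 (numpy 2.4.6, pandas 2.3.3) were used.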

Additional observations from a re-analysis of the deposited data

How the results depend on the processing

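No paired analysis was possible because the arrays compare single pools, with no further sample of any group. No member probe was called under any alternative but 1: without the p threshold, the Apoe probe on X04979 made the count 1 with ME. For the lipoprotein lists, which had 0 calls, the count was 4 with ME without the p threshold and 1 in IE vs ME by the mean fold of the pair. Single arrays gave 1 to 2 calls among the 86 probes of these lists with ME, 1 with IE and 6 to 8 in IE vs ME. Among all probes, single arrays called 649 and 878 of 40962 with ME and 585 and 758 of 40995 with IE. In IE vs ME they called 3172 and 3226 of 41012, so the list counts do not stand out. All other counts of members and lists stayed at 0. Of 159 member ratios under alternatives other than single arrays, 147 lay within 1 SD between arrays and 12 moved by more. These counts do not measure robustness. The value table and the kept outlier spots left nearly all ratios as they were, and the SD was wide for probes that follow the dye. Fabp7 with ME, whose SD was 0.00011, counted as moved when it went from -0.067 to -0.074 after normexp. The largest moves were those of the Apoe probe on X04979 with ME, which was 0.96 as reported, 0.033 without background subtraction, -5.4e-05 after normexp and 0.20 in the joint fit. With IE it turned from -0.57 to 0.12 in the value table, 0.030 after normexp and 0.18 in the joint fit, and in IE vs ME from 0.73 to -0.022 in the joint fit. Averaged over both of its probes, Apoe was at 0.46 for ME, -0.36 for IE and 0.34 for IE vs ME. The cause was not tested. Taken singly, the other 9 probes stayed between -0.22 and 0.14 under all but the single arrays. Over all probes, the count of calls with ME was 50 as reported, 404 without the p threshold, 96 by the mean fold, 14 after normexp and 19 without background subtraction. With IE these were 12, 273, 49, 6 and 6, and in IE vs ME 30, 435, 165, 24 and 18.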
